A study of Mus musculus with 31 samples.

Results

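Mouse embryonic stem (mES) cells cultured on gelatin were compared with mES cells sorted for an Oct4 GFP reporter, both before differentiation (day 0). The comparison uses 12 of the 31 arrays of the series, 6 labelled as mES cells on gelatin and 6 labelled as Oct4 FACS sorted, and the groups were taken from the array titles alone. The other 19 arrays hold embryoid bodies (EBs) after LIF withdrawal, and they enter the model only to estimate the spread. All RNA was amplified in 2 rounds and hybridised to Affymetrix MgU74Av2 arrays, a 1-colour chip on which each gene is read by 1 or more probe sets.

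Both groups are B6 mouse ES cells, and the labels give 1 growth protocol for both, with cells on mouse embryonic feeders (MEFs) in fetal calf serum and the cytokine LIF. Cells of the gelatin group were freed of feeders by letting these settle on coated plates, and were then seeded on gelatin dishes and grown there until not quite confluent, still at day 0 and with no step of LIF withdrawal. The sorted group was selected by flow cytometry on GFP driven by an Oct4 reporter. The labels do not say whether the sorted cells came directly from feeders or had been passaged on gelatin too, or whether the same ES cell line carried the reporter. The absence of feeders, attachment and density on gelatin, the sort itself, the choice of GFP-positive cells and a possible difference in line therefore cannot be told apart. No gene of the naive-state or general pluripotency lists was listed at 0 on any of the 12 arrays.

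Mouse ES cells in serum and LIF hold a mixture of states. LIF acts through LIFR, gp130 and STAT3 to maintain a network of naive factors such as KLF4, NANOG, TBX3 and ESRRB, while FGF4 made by the cells themselves signals through ERK and favours exit from that state. OCT4 and SOX2 are shared by naive and primed pluripotent cells. Attachment and spreading engage integrins and the actin cytoskeleton, and serum induces immediate early genes such as Fos and Egr1.

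Of 12422 probe sets tested, 2660 were higher (21.4%) and 2259 lower (18.2%) on gelatin (limma, Benjamini-Hochberg adjusted p under 0.05). With 1 probe set per gene, 1922 of 8251 genes were higher (23.3%) and 1519 lower (18.4%), and these shares are the background for every list below. At least 2-fold differences were mostly in one direction, with 362 genes higher (4.39%) and 82 lower (0.994%). All gelatin arrays lay above all sorted arrays for 17.4% of genes and below them for 9.95%, which is what "without overlap" means below. The split of the smaller differences depended on scaling. Of the called probe sets 54.1% were higher on the deposited scale, 39.8% after quantile normalization and 37.4% after median centring, although the median of all probe sets moved by only -0.05 and -0.06. In what follows a difference is gelatin minus sorted on the log2 scale, ± SE, over 6 and 6 arrays, and signal is the deposited linear intensity. Where another probe set of a gene did not pass or went the other way, its difference is given after the gene's own.

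A measure of RNA quality and a marker list moved with the groups. For the Gapdh control, the ratio of 3' to 5' signal, which rises when the 5' ends of transcripts are under-represented, was 3.48 to 6.85 on gelatin and 2.76 to 3.09 in sorted cells. Gelatin replicates 3, 4 and 6 were above 6, and replicates 1, 2 and 5 lay between 3.48 and 4.04. Of 47 measured fibroblast and matrix genes, 23 were higher and 7 lower on gelatin, and their summed signal was 99951 to 157646 against 53892 to 66012. Gelatin replicate 1 had the highest sum, sorted replicate 5 correlated least with its group (mean r = 0.983, the others at least 0.991), and no gene of the list was listed at 0 on any of the 12 arrays. The list did not move as one. The collagen genes Col1a1 (1.51) and Col1a2 (1.79, another probe set at -0.31), the fibroblast surface gene Thy1 (1.11) and the collagen cross-linking enzyme gene Lox (2.32) were higher. Postn, Lum, Dcn and Col3a1, also expressed by fibroblasts, had mean signals of 206, 224, 391 and 859 on gelatin against 260.0, 343, 514 and 929 in sorted cells, and did not pass. Lum passed as lower with the 12 arrays alone (adjusted p = 0.000141), and its arrays did not overlap. Mgp signal ran from 288 to 355 on gelatin and from 645 to 1119 in sorted cells. Col6a2 signal ran from 677 to 821 on gelatin and from 942 to 1167 in sorted cells. Both are on the list and lay lower on every gelatin array. Each list was therefore counted again with gelatin replicates 1, 2 and 5 alone. Their ratios still lay above those of every sorted array. Replicates 1 and 2 had the highest fibroblast and matrix sums of the gelatin arrays (157646 and 128993). The recount thus narrows the difference in ratio without removing it, and it does not lessen the difference in fibroblast signal. The part of fibroblast RNA and of RNA quality in the results was not tested, and fewer cells of a type cannot be told apart from less RNA per cell.

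**Figure D1:**
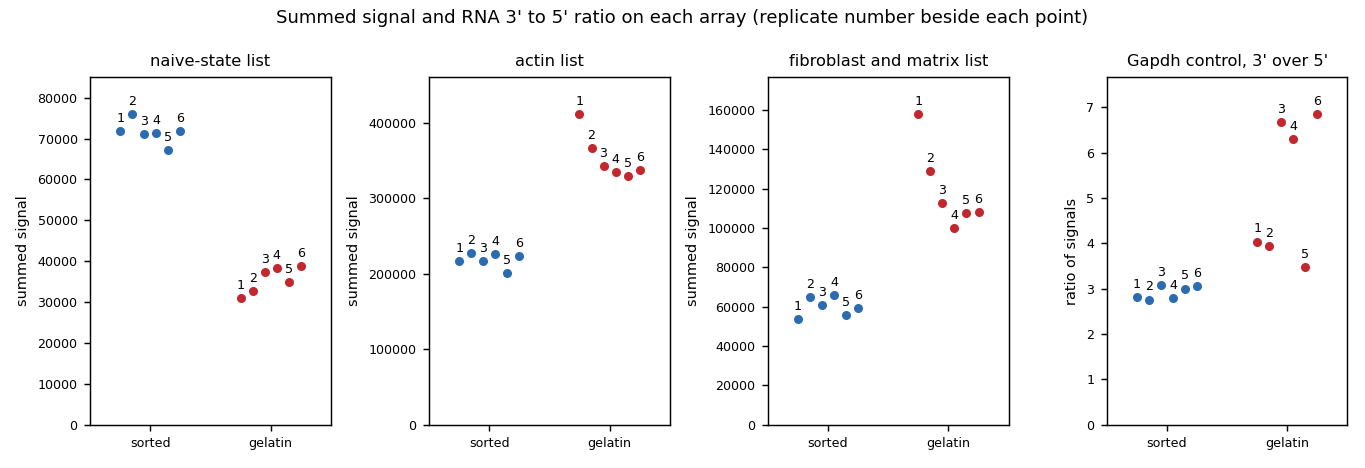
Summed signal of the naive-state, actin and fibroblast and matrix lists (linear intensity) and the ratio of 3' to 5' signal for the Gapdh control on each of the 6 sorted and 6 gelatin arrays, with the replicate number beside each point. All 4 measures separate the groups without overlap, and the gelatin ratios form a lower and a higher set.

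**Figure D2:**
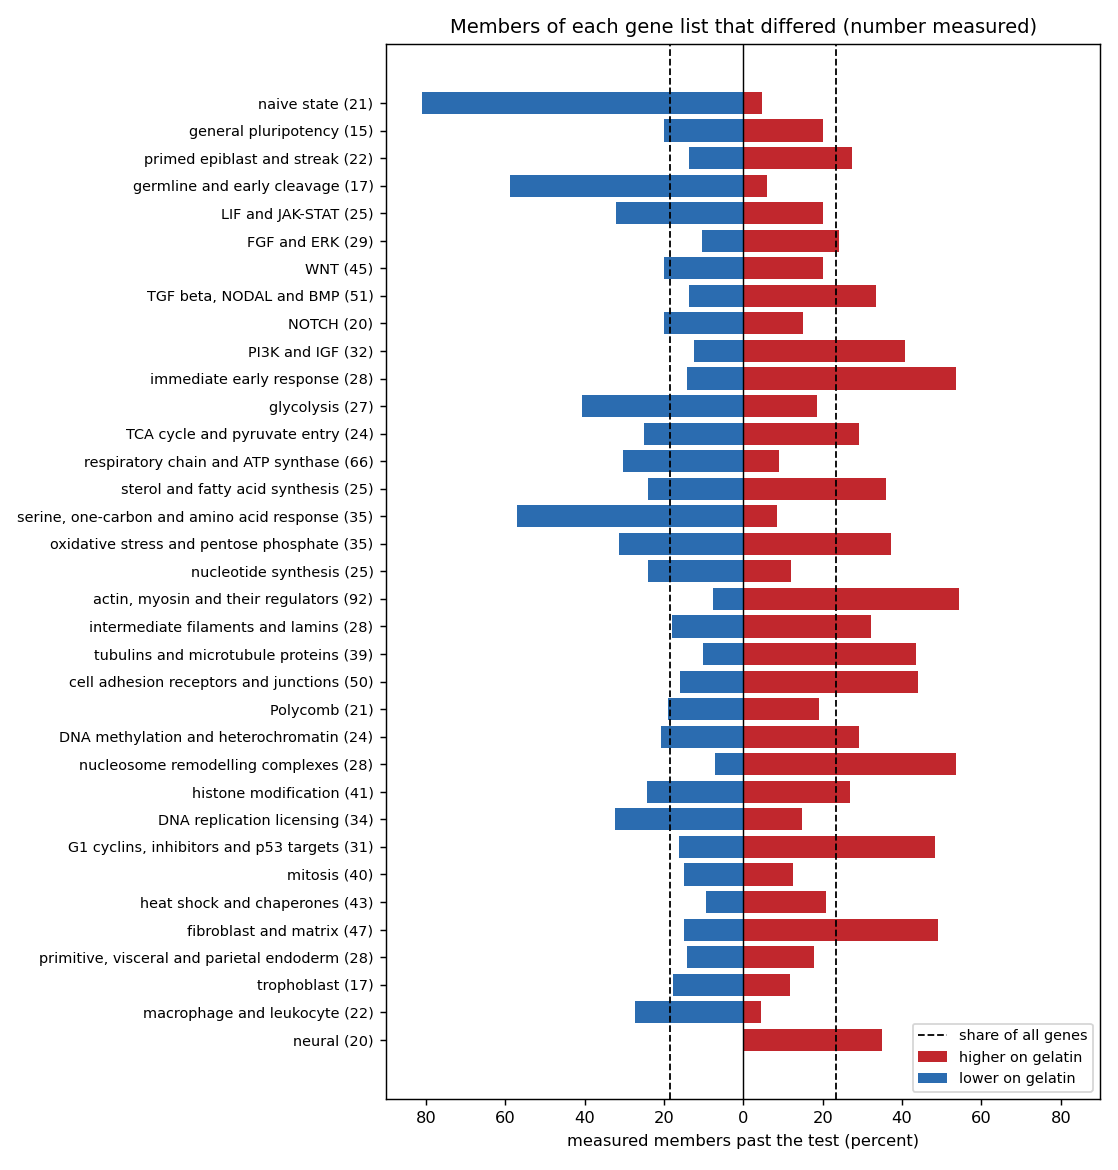
Percent of measured members of each of 35 gene lists that were higher (red) or lower (blue) on gelatin, with the number measured in brackets and the shares of all 8251 genes as dashed lines (23.3% and 18.4%). The naive-state list reaches furthest to the lower side and the actin list furthest to the higher side.

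Naive-state genes were lower on gelatin as a group. Of 21 measured members 17 were lower (81%, against 18.4% of all genes), 1 was higher and 3 did not pass, with a median difference of -0.89. The count was 16 lower and 0 higher with gelatin replicates 1, 2 and 5 alone, and no fewer than 16 were lower when any 1 of the 12 arrays was left out. The summed signal of the list was 31031 to 38814 on gelatin and 67165 to 75902 in sorted cells.

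Zfp42, which encodes the zinc finger protein REX1 used as a marker of undifferentiated ES cells, had the largest difference. Zfp42 signal ran from 549.5 to 845 on gelatin (median 664) and from 5058 to 9032 in sorted cells (median 8115). The groups were thus far apart, with a difference of -3.46 ± 0.52 (adjusted p = 5.67e-06) and a mean 11-fold higher in sorted cells. Its promoter is shown because it was the only naive-state promoter, of 15 with a RefSeq sequence, that held the octamer ATGCAAAT on either strand in the 250 bases before the start, a sequence that POU factors such as OCT4 can bind. Of all 32851 such windows 1.6% held it. The sequence is from RefSeq (GRCm38.p6, chr8:43307010-43307259, minus strand), with the octamer in capitals. It lies on the opposite strand and so reads as its reverse complement.
Zfp42: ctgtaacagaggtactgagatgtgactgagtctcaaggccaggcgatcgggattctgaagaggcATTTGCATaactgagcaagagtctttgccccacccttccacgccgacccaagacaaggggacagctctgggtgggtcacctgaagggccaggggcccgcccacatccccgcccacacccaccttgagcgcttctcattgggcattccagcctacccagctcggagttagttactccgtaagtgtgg

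Fbxo15, an F-box gene active in undifferentiated cells, was the next. Fbxo15 signal ran from 1353 to 1692 on gelatin (median 1513) and from 6336 to 8268 in sorted cells (median 7806), a difference of -2.32 ± 0.29 (adjusted p = 2.53e-07). Tcl1, a co-activator of AKT, ran from 195 to 235 on gelatin and from 525 to 706 in sorted cells (-1.57 ± 0.15; adjusted p = 3.65e-09). Both genes had every gelatin array below every sorted array. The nuclear receptor genes Nr5a2 (-1.41 ± 0.22) and Nr0b1 (-1.23 ± 0.18) and Dppa3 (-1.38 ± 0.26), which encodes a protein that guards methylation in the early embryo, were also lower without overlap. Each of these had adjusted p of 9.77e-05 or less.

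Among the core naive transcription factors the differences were smaller. Nanog signal ran from 1365 to 4351 on gelatin (median 3301) and from 4363 to 7281 in sorted cells (median 6745), a difference of -1.17 ± 0.23 (adjusted p = 0.000216). Gelatin replicates differed widely in Nanog, from 1365 to 4351, yet the highest lay just below the lowest sorted array. Tbx3 (-1.09 ± 0.21, adjusted p = 0.000173), Klf2 (-0.89 ± 0.18, adjusted p = 0.000231) and Klf4 (-0.90 ± 0.32, adjusted p = 0.0269, another probe set at 0.00) were lower, also without overlap. The Klf4 call was lost without gelatin replicate 5 (adjusted p = 0.0549) and with gelatin replicates 1, 2 and 5 alone (adjusted p = 0.105). Klf5 did not pass (0.37 ± 0.17, adjusted p = 0.0737), its arrays overlapped, and it passed as higher on leaving out gelatin replicate 2, gelatin replicate 5 or sorted replicate 5 and with array weights (adjusted p = 0.0419, 0.0354, 0.0484 and 0.0146). Esrrb was read by a dim probe set with means of 157 and 180.5, and its small difference (-0.20, adjusted p = 0.0137) was lost when the floor was raised to the 25th percentile of all values.

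The only member higher on gelatin was Gbx2, a homeobox gene downstream of LIF and STAT3. Gbx2 signal ran from 1196 to 1854 on gelatin (median 1514) and from 775 to 1087 in sorted cells (median 908), a difference of 0.74 ± 0.20 (adjusted p = 0.00351). The arrays did not overlap, but the call was lost with gelatin replicates 1, 2 and 5 alone (adjusted p = 0.0906).

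Genes shared by naive and primed pluripotent cells moved less. Of 15 measured, 3 were higher, 3 lower and 9 did not pass, close to the background, with a median of -0.01. Pou5f1 signal ran from 3908 to 5253 on gelatin (median 4921) and from 5491 to 6899 in sorted cells (median 6569.9). Pou5f1 encodes OCT4, whose reporter was used for the sort. The sorted arrays were all above the gelatin arrays. The difference of -0.45 ± 0.26 did not pass when the spread was shared with the EB arrays (adjusted p = 0.182, another probe set at 0.02). It passed with the 12 arrays alone (adjusted p = 0.00158) and with array weights (adjusted p = 0.0423). Sox2 was slightly lower (-0.37 ± 0.14, adjusted p = 0.0359), and its arrays overlapped. That call was lost on leaving out any 1 of 8 arrays (gelatin replicates 1, 2, 3 and 5, sorted replicates 1, 2, 3 and 6; adjusted p 0.0525 to 0.0906) and with gelatin replicates 1, 2 and 5 alone (adjusted p = 0.0514). Sall4, a zinc finger factor of the same network, was higher on gelatin (0.91 ± 0.14, adjusted p = 6.51e-06), and Utf1, a chromatin-bound factor of ES cells, was lower (-0.34 ± 0.11, adjusted p = 0.0123). Mycn, a MYC family factor gene, was lower as well (-0.47 ± 0.16, adjusted p = 0.0183, another probe set at 0.00), with arrays that overlapped and no call with gelatin replicates 1, 2 and 5 alone (adjusted p = 0.0944). With the 12 arrays alone 5 of the list were higher and 7 lower.

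Genes of the primed epiblast and streak were mixed. Of 22 measured, 6 were higher (27.3%), 3 lower and 13 did not pass, with a median of -0.01. Fgf5, the usual marker of the primed state, was near background on both sides, with means of 141 and 149 (-0.07 ± 0.11, adjusted p = 0.674). The factors Sox4 (1.06 ± 0.23), Sox3 (0.52 ± 0.11, other probe sets at 0.14 and -0.23) and Pou3f1 (0.50 ± 0.10) were higher without overlap, and Cer1, a secreted inhibitor of NODAL, was lower (-0.98 ± 0.22), a call lost with the floor at the 25th percentile (adjusted p = 0.0805). The counts were 3 higher and 1 lower with gelatin replicates 1, 2 and 5 alone.

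**Figure D3:**
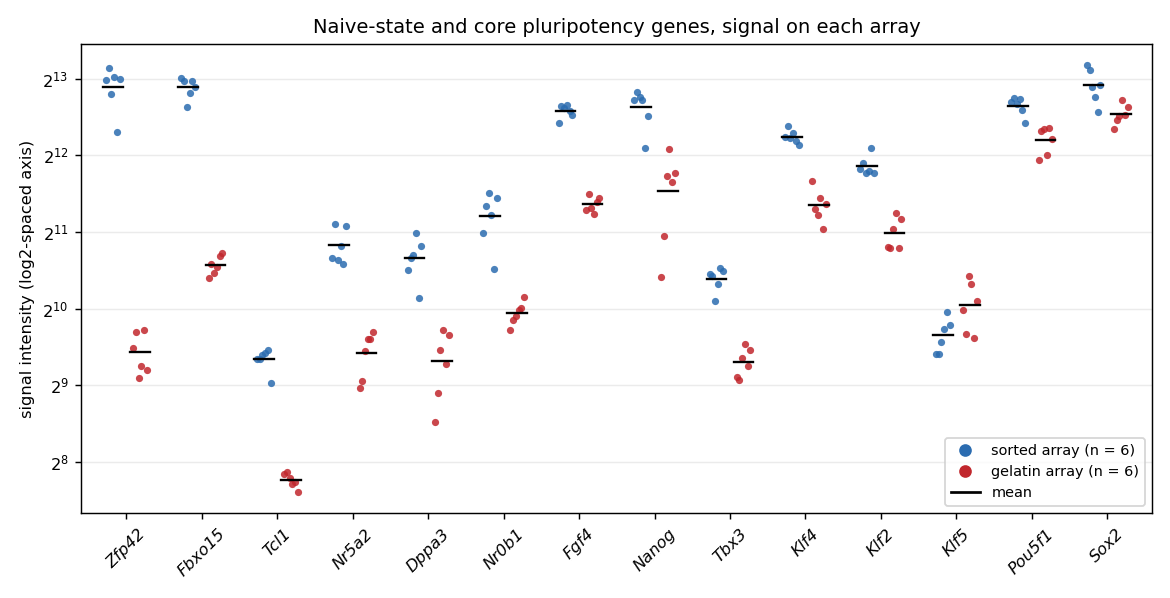
Signal of 14 naive-state and core pluripotency genes on each sorted (blue) and gelatin (red) array, on an axis spaced by log2, with the mean of each group as a bar. The groups separate for Zfp42 through Klf2 and for Pou5f1, and overlap for Klf5 and Sox2.

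Germline and early cleavage genes were also mostly lower. Of 17 measured, 10 were lower (58.8%), 1 was higher and 6 did not pass, with a median of -0.42. The X-linked homeobox gene Rhox5 had the largest negative difference of all genes. Rhox5 signal ran from 678 to 973 on gelatin (median 881) and from 10392 to 12483 in sorted cells (median 11835), a difference of -3.77 ± 0.24 (adjusted p = 1.55e-12). Xlr4a, a member of an X-linked lymphocyte-regulated family, was near the floor on gelatin (60.1 to 73.8) and ran from 352 to 1097 in sorted cells (-3.46 ± 0.22). Trap1a, an X-linked tumour antigen gene, was lower as well (-1.88 ± 0.19), and the arrays of these 3 genes did not overlap. Pramel6, of a family active in early embryos (-1.84 ± 0.07), and Rex2 (-2.07 ± 0.29) were not on the list and were among the 15 largest negative differences. Erdr1 went the other way (3.19 ± 0.20, adjusted p = 1.01e-12), from a mean of 1391 to 12771, whereas its other probe set did not pass (0.04).

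In the LIF and JAK-STAT pathway both chains of the LIF receptor were lower and the feedback inhibitor gene Socs2 was higher. Of 25 measured, 5 were higher, 8 lower (32%) and 12 did not pass, with a median of -0.00. Lifr signal ran from 256 to 304 on gelatin (median 284) and from 378 to 855 in sorted cells (median 741). The LIF receptor was thus lower on every gelatin array (-1.26 ± 0.17, adjusted p = 9.72e-07), and of its 4 other probe sets 3 passed as lower, by less (from -0.42 to -0.24). Il6st, which encodes the shared receptor gp130, was lower too (-0.49 ± 0.12, adjusted p = 0.00203, another probe set at -0.12). The kinase gene Jak1 was higher (0.53 ± 0.09, adjusted p = 3.85e-05), and Stat3 did not pass on its brightest probe set (0.12 ± 0.07, adjusted p = 0.189) but was higher on the other (0.48, adjusted p = 5.94e-09).

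Socs2, an inhibitor induced by cytokine signalling, had the largest change of the list. Socs2 signal ran from 4259 to 6843 on gelatin (median 5095) and from 1544 to 2299 in sorted cells (median 1870.4), a difference of 1.46 ± 0.13 (adjusted p = 8.2e-10). Socs3, the inhibitor that most directly damps gp130, did not pass on its brightest probe set (0.09 ± 0.09, adjusted p = 0.487) and was lower on the dimmer one (-0.95, adjusted p = 0.00052), so its direction was not settled. The kinase gene Pim3 was lower (-0.57 ± 0.19) and its relative Pim1 higher (0.37 ± 0.09, another probe set at 0.15). The Pim1 call was lost with quantile normalization (adjusted p = 0.189) and with gelatin replicates 1, 2 and 5 alone (adjusted p = 0.102). The receptor gene Osmr, which responds to oncostatin M and is expressed in fibroblasts, was higher (0.51 ± 0.12) with a mean of 402 on gelatin.

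For FGF and ERK, the ligand gene Fgf4 was lower and the feedback phosphatase gene Dusp6 higher. Spry4, another feedback gene of the list, did not pass on its brightest probe set (-0.12 ± 0.07). Fgf4 signal ran from 2418 to 2882 on gelatin (median 2615) and from 5506 to 6438 in sorted cells (median 6209), a difference of -1.21 ± 0.23 (adjusted p = 0.000108), with no overlap. Dusp6, which removes phosphate from ERK and is induced by its activity, ran from 2846 to 5615 (median 4415) on gelatin and from 726 to 1624 (median 1351) in sorted cells. This is a difference of 1.80 ± 0.22 (adjusted p = 1.75e-07, another probe set at -0.00). The ERK-responsive factor gene Etv4 (0.43 ± 0.08, another probe set at -0.03) and the GTPase gene Nras (0.70 ± 0.08) were higher. The receptor gene Fgfr1 was called higher by little (0.14 ± 0.05), and that call was lost with gelatin replicates 1, 2 and 5 alone (adjusted p = 0.0764), with quantile normalization or median centring (adjusted p = 0.491 and 0.278) and without gelatin replicate 1 or 3 or sorted replicate 1, 4 or 6 (adjusted p 0.0586 to 0.103). Over the list, 7 of 29 were higher (24.1%) and 3 lower (10.3%), the first near the background and the second below it. The counts were 4 and 1 with gelatin replicates 1, 2 and 5 alone.

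Immediate early genes were higher as a group. Of 28 measured, 15 were higher (53.6%), 4 lower and 9 did not pass, with a median of 0.18. Fos signal ran from 1079 to 2944 on gelatin (median 1563) and from 162 to 277 in sorted cells (median 224), a difference of 2.89 ± 0.47 (adjusted p = 1.52e-05). The zinc finger factor gene Egr1 (2.03 ± 0.31, another probe set at -0.28) and Ccn1, a matrix-associated target of serum response factor and YAP (2.10 ± 0.22), were also at least 2-fold higher, as were Myc (1.25 ± 0.17) and the stress factor gene Atf3 (1.14 ± 0.20). None of these overlapped between groups, although 1 of 2 further Atf3 probe sets was lower (-0.34). Members of the same class did not all move. Jun (-0.01 ± 0.08) and Ier2 (-0.00 ± 0.09) did not pass, and Junb (-0.31 ± 0.08) and Gadd45a (-0.81 ± 0.13), a growth arrest gene, were lower. In gelatin replicates 1, 2 and 5 alone, 12 members were higher and 4 lower.

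In the WNT list 9 of 45 were higher, 9 lower and 27 did not pass, near the background. Wls, the carrier that takes WNT proteins to the cell surface, stood out. Wls signal ran from 3015 to 4939.8 on gelatin (median 3432) and from 215 to 653 in sorted cells (median 519.6), a difference of 2.98 ± 0.34 (adjusted p = 6.16e-08). The co-repressor gene Tle1 (0.92 ± 0.12) and the pathway inhibitor gene Axin1 (0.45 ± 0.08) were higher, and Axin2, a direct target of beta-catenin, was lower (-0.31 ± 0.07, adjusted p = 0.000595). Ctnnb1, which encodes beta-catenin, did not pass (0.01 ± 0.24), nor did Tcf7l1, the TCF factor that represses naive genes (-0.01 ± 0.07).

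For TGF beta, NODAL and BMP, 17 of 51 genes were higher (33.3%) and 7 lower, with a median of 0.09. The ligand gene Inhba, which encodes the activin A subunit, had the largest difference. Inhba signal ran from 1921 to 8565 on gelatin (median 4000.4) and from 921 to 1368 in sorted cells (median 1144), a difference of 1.79 ± 0.23 (adjusted p = 6.04e-07). Its array values were wide on gelatin, but all lay above the sorted arrays. Tgfb2 (0.96 ± 0.10), Ltbp1, which holds latent TGF beta in the matrix (1.13 ± 0.13), and Fst, a secreted activin antagonist (1.25 ± 0.22), were higher without overlap. Nodal was higher (0.62 ± 0.16, adjusted p = 0.00292) and its inhibitor gene Lefty1 too (0.48 ± 0.17, adjusted p = 0.0261, another probe set at 0.44), both with overlapping arrays. With gelatin replicates 1, 2 and 5 alone neither passed (adjusted p = 0.19 and 0.508), and Lefty1 was also lost without gelatin replicate 3, 4 or 5 or sorted replicate 6 (adjusted p 0.0567 to 0.0902), with quantile normalization (adjusted p = 0.17) and with the 12 arrays alone (adjusted p = 0.08).

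Among BMP targets, Id2 was higher (1.70 ± 0.29, adjusted p = 3.08e-05). Id1, the target most used as a readout in ES cells, did not pass (0.26 ± 0.12, adjusted p = 0.098); it passed without gelatin replicate 4 (adjusted p = 0.0474) and with gelatin replicates 1, 2 and 5 alone (adjusted p = 0.012). Id3 was weakly higher (0.43 ± 0.15, adjusted p = 0.0263), and the call was lost without gelatin replicate 1, 2 or 5 or sorted replicate 5 (adjusted p 0.05 to 0.0906), with quantile normalization (adjusted p = 0.0795), with array weights (adjusted p = 0.0667) and with the 12 arrays alone (adjusted p = 0.0525). Bmp4 itself was slightly lower (-0.36 ± 0.06, adjusted p = 3.62e-05, another probe set at 0.21), but not when its probe sets were averaged (adjusted p = 0.424). In the NOTCH list 3 of 20 were higher (15%) and 4 lower (20%), near or below the background. The largest differences were in the receptor gene Notch2 (1.04 ± 0.21), whose other probe set did not pass (-0.07), and in Rbpj, which encodes the DNA-binding partner of NOTCH (-0.80 ± 0.17). The Rbpj call was lost with gelatin replicates 1, 2 and 5 alone (adjusted p = 0.0647).

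The PI3K and IGF list leaned to higher values, with 13 of 32 genes higher (40.6%), 4 lower and a median of 0.28. Both the pathway's core and its secreted binding proteins took part. Akt1 signal ran from 1218 to 1988 on gelatin (median 1553) and from 645 to 842 in sorted cells (median 700.2), a difference of 1.13 ± 0.09 (adjusted p = 7.16e-11). The catalytic subunit gene Pik3ca (0.95 ± 0.17), the adaptor gene Irs2 (0.84 ± 0.15) and the receptor gene Igf1r (0.67 ± 0.08) were higher without overlap. The binding protein genes Igfbp7 (2.44 ± 0.30) and Igfbp3 (1.85 ± 0.16, another probe set at 0.02), which are also made by fibroblasts, changed more. The receptor tyrosine kinase gene Kit (-1.21 ± 0.17) and the adaptor gene Gab1 (-0.72 ± 0.20) were lower, and Gab1 was lost with gelatin replicates 1, 2 and 5 alone (adjusted p = 0.198).

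Growth control genes were often higher on gelatin, both cyclin D1 and inhibitors of the cell cycle. Of 31 G1 cyclins, inhibitors and p53 targets, 15 were higher (48.4%) and 5 lower, with a median of 0.21. Ccnd1 signal ran from 6072 to 6698 on gelatin (median 6412) and from 1421 to 2134 in sorted cells (median 1838), a difference of 1.85 ± 0.24 (adjusted p = 6.95e-07) that the dimmer Ccnd1 probe set did not show (0.01). Ccne1, the cyclin E gene that ES cells express throughout the cycle, was lower (-0.33 ± 0.06). Cdkn1a signal ran from 3132 to 5843 on gelatin (median 4058) and from 1131 to 1494 in sorted cells (median 1301). This gene, which encodes the p53-induced inhibitor p21, differed by 1.67 ± 0.19 (adjusted p = 4.77e-08), and its other probe set by 1.86. The inhibitor gene Cdkn2b (2.13 ± 0.26) was higher as well.

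Other genes that p53 is known to activate moved in both directions. The p53 ubiquitin ligase gene Mdm2 (1.47 ± 0.12), Ccng1, which encodes cyclin G1 (1.58 ± 0.24), and Perp, which encodes a desmosomal membrane protein (2.63 ± 0.28), were higher on all 6 gelatin arrays. Gadd45a (-0.81 ± 0.13) and Ddit4 (-1.15 ± 0.24), which p53 can also induce and which were counted in other lists, were lower. Mdm4, the partner of MDM2, was lower (-0.40 ± 0.08). Lats2, a kinase of the Hippo pathway and also a p53 target, was among the largest differences of all (2.62 ± 0.35), with values from 2033 to 6437 on gelatin and from 273 to 662 in sorted cells. The list had 14 genes higher and 4 lower with gelatin replicates 1, 2 and 5 alone.

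**Figure D4:**
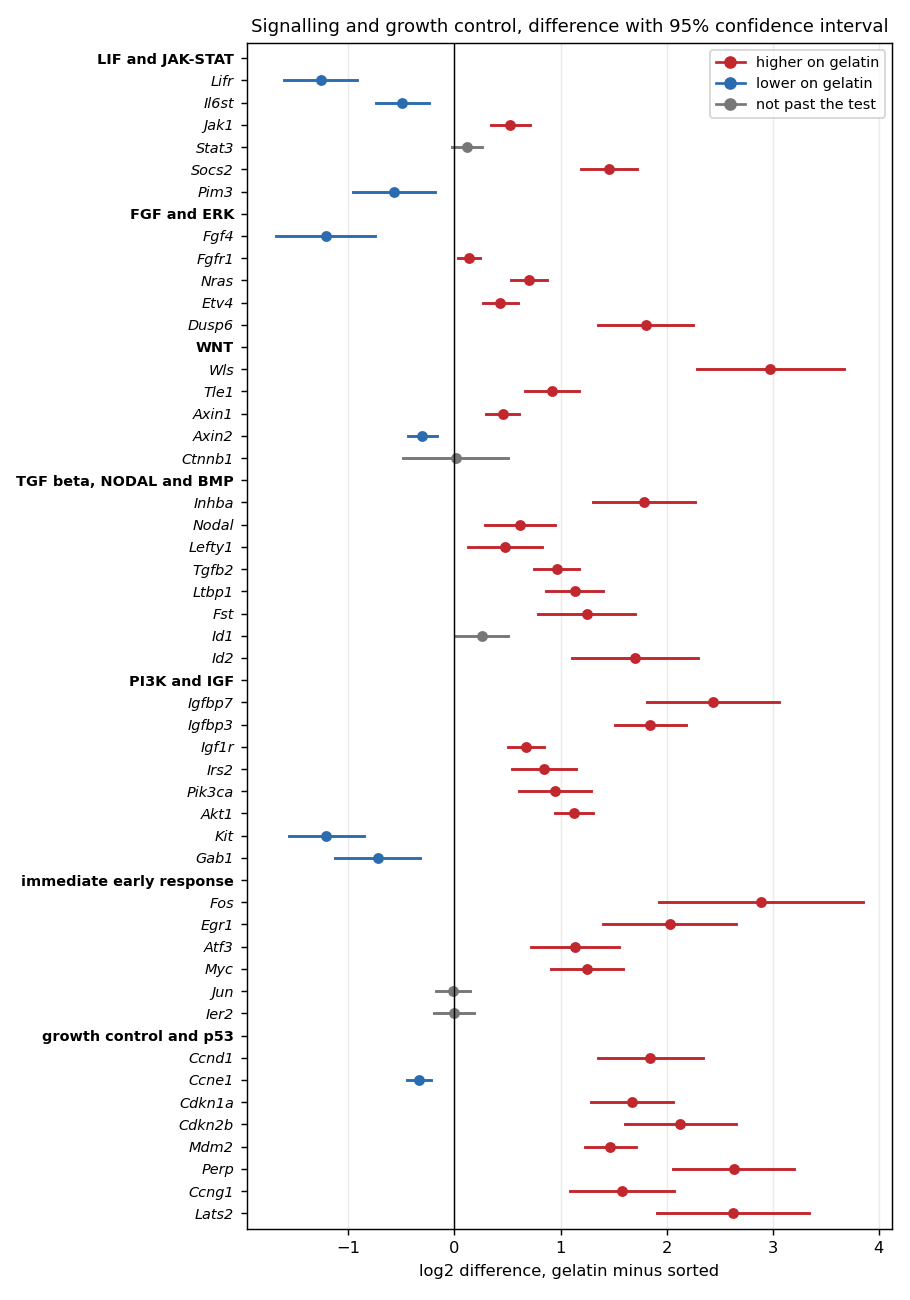
Log2 difference (gelatin minus sorted) of genes of signalling and growth control, with the 95% confidence interval of the limma fit as a line; red and blue mark genes past the test and grey those that were not. Lifr, Fgf4, Kit and Gab1 lie to the left while Dusp6, Socs2, Fos, Mdm2, Perp and Ccng1 lie to the right.

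Genes of the glycolysis list were more often lower on gelatin. Of 27 measured, 11 were lower (40.7%), 5 higher and 11 did not pass, with a median of -0.17. Those lower include the hypoxia-responsive genes Bnip3, Vegfa and Ddit4, given below, which are not glycolytic. With gelatin replicates 1, 2 and 5 alone 8 were lower and 6 higher. Pfkp signal ran from 289 to 419 on gelatin (median 356) and from 1982 to 2609 in sorted cells (median 2342). This gene, which encodes the platelet form of phosphofructokinase, differed by -2.72 ± 0.21 (adjusted p = 7.33e-11), and its other probe set by -2.26. The liver form gene Pfkl was lower by less (-0.83 ± 0.30, adjusted p = 0.0284), a call lost without gelatin replicate 1 or 2 (adjusted p = 0.0647 and 0.0536). Tpi1 (-0.80 ± 0.16), Ldha (-0.36 ± 0.09) and Pdk1, which restrains pyruvate entry into mitochondria (-0.44 ± 0.11), were lower, and Ldha was lost with gelatin replicates 1, 2 and 5 alone (adjusted p = 0.143). Hexokinase genes went both ways, with Hk1 lower on its brightest probe set (-0.51 ± 0.10). Other genes of the list had higher values. The glucose transporter gene Slc2a3 (0.91 ± 0.21, another probe set at -0.52, and adjusted p = 0.318 with both averaged), the hexokinase gene Hk2 (0.39 ± 0.12, another probe set at 0.00), the regulator gene Pfkfb3 (1.06 ± 0.12, another probe set at 0.01) and the pyruvate kinase gene Pkm (0.54 ± 0.10) were higher.

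The same list held hypoxia-responsive genes that are not glycolytic, and of these Bnip3, a mitophagy receptor (-0.99 ± 0.20), the angiogenic factor gene Vegfa (-0.59 ± 0.11) and Ddit4, an inhibitor of mTOR (-1.15 ± 0.24), were lower. Ldhc, the lactate dehydrogenase of germ cells, was at 79.5 to 93.1 on gelatin against 389.8 to 503 in sorted cells (-2.37 ± 0.16).

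In mitochondria the changes divided between enzymes of the same cycle. Of 24 genes of the TCA cycle and pyruvate entry, 7 were higher (29.2%) and 6 lower (25%). Idh2 signal ran from 1054 to 1333 on gelatin (median 1117) and from 3199 to 3827 in sorted cells (median 3507). Mitochondrial isocitrate dehydrogenase 2 thus differed by -1.61 ± 0.11 (adjusted p = 3.29e-12), and Idh3g, a subunit of the NAD-dependent form, by -1.33 ± 0.14. Idh3a, another subunit of that form, was slightly higher (0.19 ± 0.05, another probe set at -0.34). Cytosolic Idh1 was lower (-0.66 ± 0.13). The citrate synthase gene Cs (0.68 ± 0.08), Dlat, a subunit of pyruvate dehydrogenase (0.74 ± 0.16, another probe set at -0.14), and the malic enzyme gene Me1 (1.81 ± 0.16) were higher, all without overlap. Pdhb, another subunit of pyruvate dehydrogenase, was lower (-0.51 ± 0.13), with arrays that overlapped. In the respiratory chain and ATP synthase 20 of 66 genes were lower (30.3%) and 6 higher, with a small median of -0.09. The largest differences were in Sdha of complex II, which was higher (0.80 ± 0.25), and in Ndufv3 of complex I, which was lower (-0.76 ± 0.13). Sdha arrays overlapped and split on gelatin. Its signal was 1119, 1151 and 1258 on replicates 1, 2 and 5 and 592, 692 and 714 on replicates 3, 4 and 6, against 272 to 679 in sorted cells. The count of lower genes in the list was 13 with gelatin replicates 1, 2 and 5 alone and 12 without sorted replicate 3.

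Genes of serine and one-carbon metabolism and of the amino acid response were lower together. Of 35 measured, 20 were lower (57.1%), 3 higher and 12 did not pass, with a median of -0.28. Atf4 signal ran from 2618 to 3449 on gelatin (median 3014) and from 5347 to 7392 in sorted cells (median 7054). Atf4 encodes the transcription factor that drives this response, and it differed by -1.18 ± 0.10 (adjusted p = 6.01e-10). Trib3 signal ran from 667 to 764 on gelatin (median 683) and from 1397 to 1985 in sorted cells (median 1711). Trib3 encodes a pseudokinase and is an ATF4 target, and it differed by -1.29 ± 0.07 (adjusted p = 4.89e-14). The stress gene Nupr1 (-1.01 ± 0.17) and the asparagine synthetase gene Asns (-0.89 ± 0.13) were lower too. Along the serine and glycine route, Psph (-0.84 ± 0.07), Shmt1 (-1.01 ± 0.16, another probe set at -0.04), Mthfd2 (-0.81 ± 0.10) and Gldc (-0.87 ± 0.11) had lower values on every gelatin array. Ddit3, which encodes the stress factor CHOP, was higher (0.47 ± 0.15), a call lost with gelatin replicates 1, 2 and 5 alone (adjusted p = 0.0947), and the transporter gene Slc7a7 was higher too (0.69 ± 0.16). With gelatin replicates 1, 2 and 5 alone 18 genes were lower and 2 higher.

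Promoters of this list often held the letters TGATGNAA, a C/EBP-ATF element that ATF4 can bind, on one strand or the other. 10 of 31 listed genes with a RefSeq promoter had it in the 250 bases before the start (32.3%), against 2.63% of 6576 measured genes and 3.45% of all 32851 windows. The list was chosen to hold genes of a response that ATF4 drives. This share can follow from that choice and does not concern the difference between the groups. Of the 19 listed genes that were lower and had a promoter, 6 held it (31.6%), about the share of the whole list. Among the other holders, Slc7a7 and Gars were higher on gelatin, and Aars and Vldlr did not pass. Asns and Nupr1 are shown as members with the element in capitals, on the gene's strand in Asns and on the opposite strand in Nupr1 (RefSeq, GRCm38.p6, both genes on the minus strand, chr6:7693210-7693459 and chr7:126625471-126625720). The letters can overlap the octamer named above, and a match does not show binding.
Asns: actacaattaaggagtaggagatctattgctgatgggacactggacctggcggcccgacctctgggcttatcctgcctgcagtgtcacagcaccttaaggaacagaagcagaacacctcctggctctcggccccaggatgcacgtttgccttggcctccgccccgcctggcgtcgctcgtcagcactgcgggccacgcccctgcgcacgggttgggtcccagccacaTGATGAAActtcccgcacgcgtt
Nupr1: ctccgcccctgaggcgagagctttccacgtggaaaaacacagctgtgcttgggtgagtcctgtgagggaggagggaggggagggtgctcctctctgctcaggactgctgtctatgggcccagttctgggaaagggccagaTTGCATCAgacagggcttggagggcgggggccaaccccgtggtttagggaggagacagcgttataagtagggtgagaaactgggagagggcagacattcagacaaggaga

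Oxidative stress and pentose phosphate genes split in both directions, 13 of 35 higher (37.1%) and 11 lower (31.4%), with a median of -0.04. Nqo1 signal ran from 626 to 818 on gelatin (median 693) and from 116 to 158 in sorted cells (median 142), a difference of 2.33 ± 0.24 (adjusted p = 1.33e-08) in the quinone reductase gene. Sulfiredoxin (Srxn1, 1.63 ± 0.10), thioredoxin reductase (Txnrd1, 1.32 ± 0.13), the glutathione transferase gene Gsto1 (2.06 ± 0.14), the glutathione synthesis subunit gene Gclm (0.56 ± 0.11) and catalase (Cat, 0.85 ± 0.14, another probe set at -0.13) were higher without overlap. A second probe set of Srxn1 was lower (-0.32). Nfe2l2, which encodes NRF2, a factor that responds to electrophiles, was lower (-0.69 ± 0.19), a call lost with gelatin replicates 1, 2 and 5 alone (adjusted p = 0.122).

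Those lower included the metal-binding metallothionein genes. Mt1 signal ran from 1771 to 2184 on gelatin (median 1943) and from 4683 to 7498 in sorted cells (median 5493), a difference of -1.53 ± 0.16, and Mt2 differed by -0.95 ± 0.08. Mitochondrial superoxide dismutase (Sod2, -1.13 ± 0.12) and transaldolase (Taldo1, -1.01 ± 0.16) were lower on every gelatin array. The antioxidant response element TGACNNNGC was found in 5 of 29 promoters of the list (17.2%) and in 14% of measured genes, so no promoter is shown for it.

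Lipid and nucleotide synthesis had no common direction. Of 25 sterol and fatty acid genes, 9 were higher and 6 lower, with Elovl6 (0.53 ± 0.10, another probe set at 0.05) and Scd2 (0.55 ± 0.19, another probe set at 0.36) of fatty acid elongation and desaturation higher and Fdps of the sterol route lower (-0.52 ± 0.10, another probe set at -0.14). The Scd2 call was lost without sorted replicate 5 (adjusted p = 0.0574). Of 25 nucleotide genes 3 were higher and 6 lower, the largest being the uridine phosphorylase gene Upp1 (-1.66 ± 0.22), which breaks uridine down.

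The actin cytoskeleton genes were higher as a group. Of 92 measured genes 50 were higher (54.3%, against 23.3% of all genes), 7 lower and 35 did not pass, with a median of 0.42. At least 2-fold higher were 22 of them, against 4.39% of all genes. The summed signal was 328775 to 410763 on gelatin and 200321 to 227700.0 in sorted cells. The count stayed at 50 higher and 7 lower with gelatin replicates 1, 2 and 5 alone, which include the gelatin arrays with the highest fibroblast and matrix sums. Many of these genes are also strongly expressed in fibroblasts, whose markers moved with the groups as described above.

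Housekeeping actins were among them. Actb signal ran from 11897 to 15792 on gelatin (median 15060.5) and from 7246 to 8007 in sorted cells (median 7663), a difference of 0.93 ± 0.11 (adjusted p = 1.44e-07, another probe set at 0.72), and gamma-actin (Actg1) differed by 0.65 ± 0.06. The non-muscle myosin heavy chain Myh9 (1.27 ± 0.15), alpha-actinin (Actn1, 1.35 ± 0.15) and tropomyosin (Tpm1, 1.22 ± 0.12) were higher without overlap, though 1 further Actn1 probe set was lower (-0.40). Myl9 signal ran from 2139.6 to 5059 on gelatin (median 3401) and from 506 to 766 in sorted cells (median 691). This regulatory myosin light chain differed by 2.37 ± 0.17 (adjusted p = 1.66e-11), the most of the list. The actin-binding protein genes Cnn2 (2.26 ± 0.13) and Tagln (1.90 ± 0.12), known from smooth muscle, and Gsn, which severs filaments (1.95 ± 0.24), followed. The bundling protein gene Pls3 (1.80 ± 0.28) and Ilk, which links integrins to actin (1.55 ± 0.13), were at least 2-fold higher. Muscle actins Acta1 (1.40 ± 0.28) and Acta2 (1.24 ± 0.26) were higher as well. Among the few lower were Myl6 (-0.32 ± 0.06) and the focal adhesion gene Zyx (-0.47 ± 0.11).

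Many actin genes are targets of serum response factor, which binds the CArG box. Both strands were searched, and the box was found in 10 of 77 promoters of the list (13%), against 1.72% of measured genes and 1.47% of all windows. Such a share can follow from the choice of actin genes for the list and does not concern the difference between the groups. Of 43 listed genes that were higher and had a promoter, 7 held it (16.3%). Among the other holders, Myl6 was lower on gelatin, and Myl7 and Vil1 did not pass. Promoters of 3 of the higher genes are shown with the box in capitals (RefSeq, GRCm38.p6). Myl9 is at chr2:156775214-156775463 (plus strand), Cnn2 at chr10:79988350-79988599 (plus strand) and Acta1 at chr8:123894776-123895025 (minus strand).
Myl9: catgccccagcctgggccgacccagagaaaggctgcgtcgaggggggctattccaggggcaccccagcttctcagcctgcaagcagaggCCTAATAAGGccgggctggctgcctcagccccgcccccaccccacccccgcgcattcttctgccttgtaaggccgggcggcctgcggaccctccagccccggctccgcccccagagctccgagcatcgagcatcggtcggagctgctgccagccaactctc
Cnn2: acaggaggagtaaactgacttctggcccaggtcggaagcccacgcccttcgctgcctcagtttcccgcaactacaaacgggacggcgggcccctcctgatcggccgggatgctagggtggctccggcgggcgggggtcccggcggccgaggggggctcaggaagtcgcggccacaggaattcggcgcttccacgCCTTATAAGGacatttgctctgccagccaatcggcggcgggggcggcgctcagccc
Acta1: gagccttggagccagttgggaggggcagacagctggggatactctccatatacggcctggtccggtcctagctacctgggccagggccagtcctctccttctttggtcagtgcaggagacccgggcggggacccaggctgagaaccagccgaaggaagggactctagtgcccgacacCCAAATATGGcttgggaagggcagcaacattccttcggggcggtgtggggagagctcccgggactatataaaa

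Adhesion genes leaned the same way, 22 of 50 higher (44%) and 8 lower. Cdh2 signal ran from 1434 to 3368 on gelatin (median 1731) and from 148 to 321 in sorted cells (median 273). N-cadherin thus differed by 3.04 ± 0.40 (adjusted p = 7.25e-07), while E-cadherin, the cadherin of ES cell colonies, was also higher (Cdh1, 0.63 ± 0.12). Both genes had no overlap between groups. The integrin genes Itgav (1.25 ± 0.16) and Itgb1 (1.01 ± 0.11), their partner Cd151 (1.25 ± 0.10, other probe sets at -0.12 and -0.06) and the tight junction gene Cldn7 (1.41 ± 0.27) were higher without overlap. The gap junction gene Gjb5 was lower (-1.17 ± 0.19).

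Of 28 intermediate filament genes 9 were higher (32.1%) and 5 lower (17.9%). Krt8 (1.51 ± 0.17) and Krt18 (0.90 ± 0.23, another probe set at 0.00), the keratin pair of simple epithelia, Dsp, which anchors keratins at desmosomes (1.71 ± 0.32, another probe set at 0.00), and Nes, which encodes nestin (2.27 ± 0.14, another probe set at -0.12), were higher without overlap. Vim, the vimentin gene of fibroblasts, was read by a dim probe set and did not pass (-0.04 ± 0.05; means 279 and 287). Of 39 microtubule genes 17 were higher (43.6%) and 4 lower, but none by 2-fold. Tuba1a was higher (0.65 ± 0.08) and Stmn1, which destabilises microtubules, lower (-0.71 ± 0.10, another probe set at -0.10).

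Chromatin genes differed by class. Nucleosome remodelling complexes had 15 of 28 genes higher (53.6%), 2 lower and a median of 0.30. Smarca4 signal ran from 1727 to 2519.6 on gelatin (median 2440.2) and from 1013 to 1236 in sorted cells (median 1174). BRG1, the ATPase that Smarca4 encodes and that ES cells use in their BAF complex, thus differed by 0.98 ± 0.11 (adjusted p = 6.87e-08), while its other, dimmer probe set did not pass (-0.13). Its partner Smarcc1 (BAF155, 1.24 ± 0.12), Arid2 (1.67 ± 0.17) and Pbrm1 (0.91 ± 0.18, other probe sets at 0.00 and -0.13) of the related PBAF complex and the helicase gene Chd8 (0.99 ± 0.19) were higher without overlap. Gelatin replicates 1, 2 and 5 alone gave 12 higher and 2 lower.

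Polycomb genes, by contrast, were near the background in number, 4 of 21 higher and 4 lower. The Polycomb gene Phc1 was higher without overlap (0.53 ± 0.14). Mtf2 signal ran from 1156 to 1729.7 on gelatin (median 1589) and from 1852 to 4889 in sorted cells (median 3725). This accessory subunit, which guides PRC2 to DNA in ES cells, differed by -1.22 ± 0.22 (adjusted p = 8.18e-05), and 2 of its 3 other probe sets were lower too (-1.92 and -1.39). The catalytic subunit gene Ezh2 did not pass (0.03 ± 0.14) whereas its relative Ezh1 was lower (-0.67 ± 0.11). Suz12 was lower (-0.56 ± 0.16, another probe set at -0.08), a call lost with gelatin replicates 1, 2 and 5 alone (adjusted p = 0.142). Eed did not pass (-0.44 ± 0.21, adjusted p = 0.0983), but passed as lower with quantile normalization (adjusted p = 0.00856), with median centring (adjusted p = 0.0359), with array weights (adjusted p = 0.000996) and without sorted replicate 5 (adjusted p = 0.0287).

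The DNA methyltransferase genes did not pass, with Dnmt1 at -0.05 ± 0.11 and Dnmt3a at 0.01 ± 0.10. Uhrf1, which brings DNMT1 to replicated DNA (-0.51 ± 0.07), and the helicase gene Hells (-1.33 ± 0.37) were lower, the latter with a wide interval (-2.09 to -0.57), overlapping arrays and no call with gelatin replicates 1, 2 and 5 alone (adjusted p = 0.19). The architectural protein gene Hmga2 was higher (1.20 ± 0.32). Of 24 genes of this class 7 were higher (29.2%) and 5 lower (20.8%).

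Histone modifiers moved both ways, 11 of 41 higher (26.8%) and 10 lower (24.4%). Kat2b signal ran from 677 to 829 on gelatin (median 755) and from 1439 to 2980.1 in sorted cells (median 2699). This acetyltransferase gene (PCAF) was thus lower by 1.68 (adjusted p = 1.51e-07), while the acetyltransferase gene Kat7 (0.94 ± 0.09, another probe set at 0.16) and the methyltransferase gene Kmt2a (1.40 ± 0.16) were higher. The deacetylase gene Hdac2 was lower (-0.62 ± 0.12). Hdac1 was weakly higher (0.34 ± 0.10), but not with quantile normalization (adjusted p = 0.091) nor with gelatin replicates 1, 2 and 5 alone (adjusted p = 0.118).

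**Figure D5:**
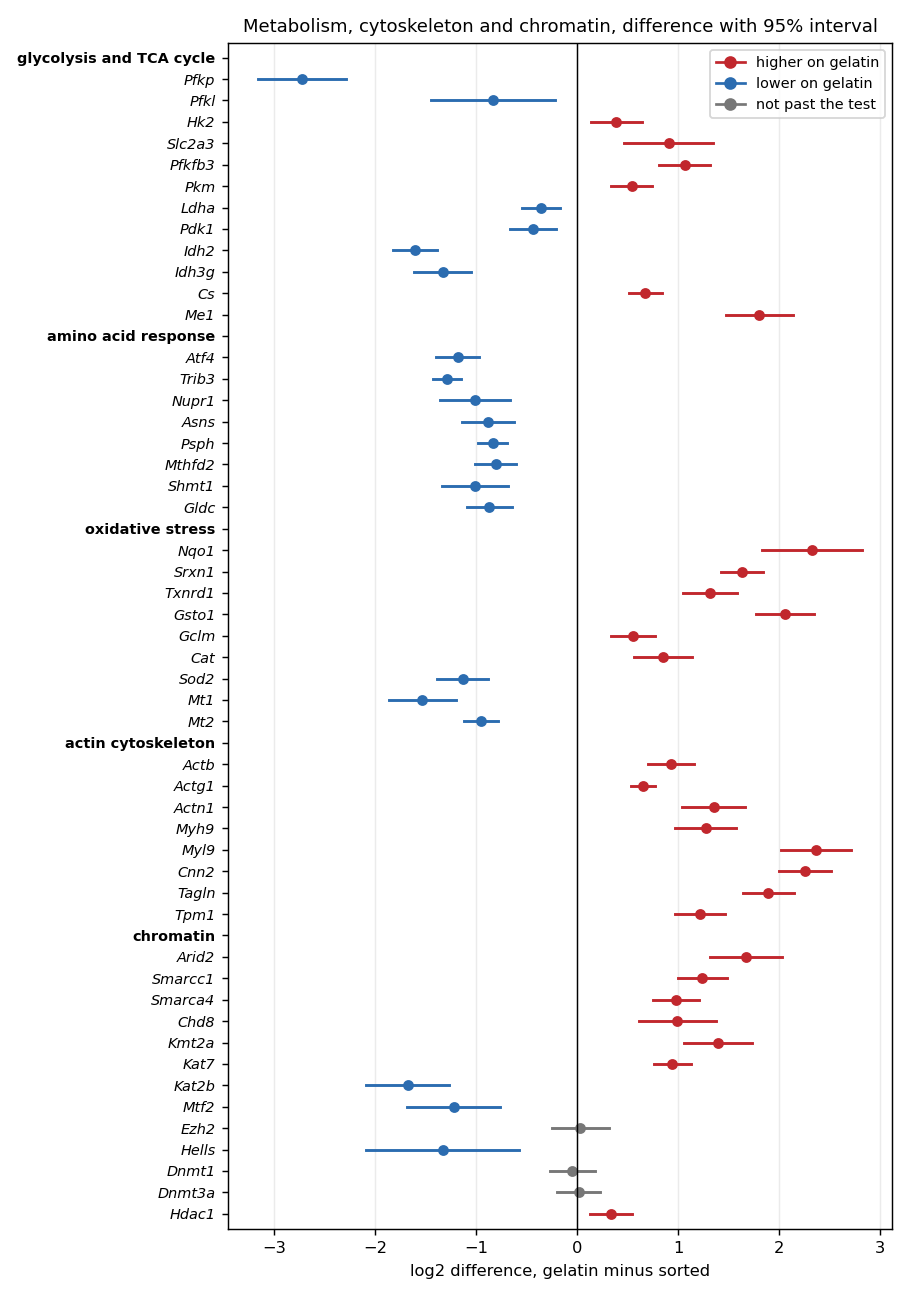
Log2 difference (gelatin minus sorted) of genes of metabolism, the actin cytoskeleton and chromatin, with the 95% confidence interval of the limma fit as a line; red and blue mark genes past the test and grey those that were not. All 8 amino acid response genes shown lie to the left and all 8 actin cytoskeleton genes shown to the right, and the other groups lie on both sides. The genes shown were chosen from longer lists. Of all 35 genes of the amino acid response list 3 were higher and 12 did not pass. Of all 92 actin genes 7 were lower and 35 did not pass.

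Of 34 replication genes 11 were lower (32.4%) and 5 higher. The largest differences were in the polymerase alpha gene Pola1 (-1.26 ± 0.11), the primase gene Prim2 (-0.89 ± 0.15) and the helicase gene Mcm7 (-0.88 ± 0.12). With gelatin replicates 1, 2 and 5 alone 6 were lower and 1 higher. Mitosis genes, 5 of 40 higher and 6 lower, and chaperones, 9 of 43 higher and 4 lower, had shares at or below the background. Among chaperones the largest differences were in Pdia6 of the endoplasmic reticulum (-1.38 ± 0.27, another probe set at 0.23) and in the small heat shock gene Cryab (1.34 ± 0.13, another probe set at 0.00). Pdia6 arrays overlapped and split on gelatin. Its signal was 1552, 1609 and 2009 on replicates 1, 2 and 5 and 668, 588 and 579 on replicates 3, 4 and 6, against 1881 to 3254 in sorted cells.

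Markers of other cell types had lower shares called than those of fibroblasts. Of 28 endoderm genes 5 were higher (17.9%) and 4 lower (14.3%), both below the shares of all genes (23.3% and 18.4%). Among the higher were Dab2 (2.08 ± 0.41, other probe sets at 0.50 and 0.19) and the basement membrane genes Col4a1 (2.07 ± 0.28) and Lamb1 (1.68 ± 0.18). Among the lower were the proteoglycan gene Srgn (-2.13 ± 0.57) and the lineage factor gene Gata6 (-0.33 ± 0.09, another probe set at 0.00). The Srgn signal on gelatin lay around the floor (43.5 to 64.3), and its call was lost with the floor at the 25th percentile (adjusted p = 0.758). The Gata6 call was lost when its probe sets were averaged (adjusted p = 0.0747). Of 17 trophoblast genes 2 were higher (11.8%) and 3 lower (17.6%), and of 22 leukocyte genes 1 was higher (4.55%) and 6 lower (27.3%). Of 20 neural genes 7 were higher (35%) and 0 lower, Nes and the factor gene Sox11 (2.02 ± 0.20) being the largest. The summed signal of the neural list was 23504 to 28260.3 on gelatin against 16224 to 17912.

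The largest differences outside these lists are given with the EB means, from 7 arrays at day 4 and 6 each at days 8 and 14, as a scale. Ccdc80, a secreted matrix protein gene, had means of 967 on gelatin and 97.1 in sorted cells (3.25 ± 0.24), and of 54.7, 56.9 and 102 in EBs. Prss23, a secreted protease gene, had 5975 and 847 (2.89 ± 0.49), and 729.9, 408 and 1061 in EBs. The growth factor gene Bdnf had 5374 and 907 (2.55 ± 0.25), and 1484, 643 and 923 in EBs. Tnc, a matrix protein gene (3.23 ± 0.49), Crybg1 (2.83 ± 0.19), the prostaglandin synthase gene Ptgs2 (2.69 ± 0.40), the growth hormone receptor gene Ghr (2.59 ± 0.17, another probe set at 0.13) and the membrane glycoprotein gene Pdpn (2.50 ± 0.19) were also among the 15 largest positive differences. For Ccdc80, Prss23 and Bdnf the gelatin mean was the highest of the 5 groups, as it was for Myl9, with 3483 on gelatin and 526, 342 and 441 in EBs.

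Among genes lower on gelatin, Ipp, an actin-binding kelch protein gene, had 479.9 on gelatin and 3883 in sorted cells (-2.99 ± 0.11, adjusted p = 1.05e-17), and 511, 586 and 643 in EBs. Calml4, a calmodulin-like gene, had 303 and 1476 (-2.28 ± 0.11), and 292, 239.8 and 217 in EBs. In both the sorted mean was the highest of the 5 groups. The serpin gene Serpinb6c (-2.28 ± 0.14), the actin-binding twinfilin gene Twf2 (-1.95 ± 0.22) and the bicarbonate transporter gene Slc4a5 (-1.78 ± 0.10) were also among the 15 largest negative differences. Zfp42 had 689.8 on gelatin, 7619 in sorted cells and 1577, 3700.3 and 326 in EBs, so its sorted mean was the highest too. Its gelatin mean lay below the EB means at days 4 and 8, and that of Ipp lay below the EB mean at each day. Nanog had 2966 on gelatin, 6312 in sorted cells and 5396, 6116 and 2373 in EBs. These means are set side by side as a description, since any comparison with EBs would share these arrays.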

How the data were processed

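Signal intensity values of 31 arrays were deposited by the authors after dChip normalization and probe-level modelling, on a linear scale; the dChip version and model are not given in the sources used here. Of 12488 probe sets, 66 controls were left out. Values below the 5th percentile (59.6) were raised to it, and log2 values were fitted with limma 3.58.1 (R 4.3.3; lmFit, eBayes with a variance trend) as 5 group means over all 31 arrays, with Benjamini-Hochberg adjustment over 12422 probe sets. The fit was tested on simulated data. A gene is its probe set with 1 symbol and the highest mean (10833 probe sets had 1 symbol, 396 several and 1193 none). Genes open to naming were the 15 largest non-overlapping differences in each direction outside the fibroblast list. They also included up to 6 members of each list in each direction, and a fixed set of pluripotency, LIF, FGF and chromatin genes. Acta1, Acta2, Actn1, Col1a1, Col1a2, Col3a1, Dcn, Eif2s3y, Gclm, Ier2, Igf1r, Igf2r, Itgb1, Jun, Lum, Magel2, Mest, Mthfd2, Myh9, Ndn, Postn, Psph, Slc38a4, Thy1, Tpm1 and Xist were named after their values were seen. Hk1 and Spry4 were also named after their values were seen. Apart from them, the rule and the later choices gave 403 genes. The text names part of these, and no rule set which part. The members and the 35 lists were chosen with earlier results of these data known.

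Groups and replicate numbers came from the array titles. The study's methods call the samples of each time point biological samples. They do not describe the sorted cells, and the labels do not say whether the sorted replicates were separate cultures, so the spread of that group may be technical. Alternatives were quantile normalization, median centring, other floors, dim probe sets left out, averaged probe sets, array weights, a fit without the variance trend, the replicate number as a block, the 12 arrays alone, each array left out and, chosen after seeing the data, gelatin replicates 1, 2 and 5 alone. The number of arrays limits the precision.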

Additional observations from a re-analysis of the deposited data

Results flagged for a closer look

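Of the genes named here 221 were checked, all but Col6a2, Hk1, Idh3a, Mgp, Pdhb, Phc1 and Spry4. They gave 442 groups of 6 arrays. By chance, 1 array stands apart by Dixon's ratio in about 1 of 20 groups. The lowest or highest array stood apart from the other 5 in 40 groups. Sorted replicate 5 was that array in 13 of them and gelatin replicate 5 in 7. The signal on that array is given first, with the range of the other 5 in brackets.

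Sorted replicate 5 stood low for Atf4 at 5347 (6689.7 to 7392), Ccdc80 at 61.6 (95.3 to 121), Dsp at 589 (1059 to 1464), Id3 at 705 (1007 to 1172) and Kit at 318 (626 to 786). It was also low for Lifr at 378 (665 to 855), Me1 at 339 (439 to 491), Prss23 at 299.8 (765 to 1191), Ptgs2 at 36.7 (114 to 151) and Sox3 at 441 (515 to 564). It was also low for Stmn1 at 5198 (7117 to 7653), Tuba1a at 14844 (16941 to 17824) and Wls at 215 (447 to 653). Sorted replicate 1 stood low for Myl6 at 470.0 (528 to 548). Sorted replicate 3 stood low for Chd8 at 507 (733 to 901), Hk2 at 6807 (9134 to 10433) and Rhox5 at 10392 (11725 to 12483). Sorted replicate 4 stood low for Etv4 at 1197 (1379 to 1493). Sorted replicate 4 stood high for Cer1 at 381 (269 to 300.1) and Psph at 5891 (5340.1 to 5538). Sorted replicate 6 stood low for Idh3g at 2272 (2649 to 2837), Tcl1 at 525 (651 to 706) and Zyx at 246 (352 to 406). Without sorted replicate 5 the calls of Scd2 and Id3 were lost (limma adjusted p = 0.0574 and 0.0906) and Klf5 and Eed passed (adjusted p = 0.0484 and 0.0287).

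Gelatin replicate 5 stood low for Cryab at 506 (910.0 to 1107), Dnmt3a at 912 (1328 to 1457), Kmt2a at 1363 (1806 to 1972) and Myl6 at 348 (418 to 459.9). Gelatin replicate 5 stood high for Idh2 at 1333 (1054 to 1150.4), Idh3g at 1289 (973 to 1055) and Ldhc at 93.1 (79.5 to 84.3). Gelatin replicate 1 stood low for Elovl6 at 1778 (2286 to 2615), Krt8 at 4338 (5076 to 5476), Rhox5 at 678 (854 to 973), Stmn1 at 3539 (4206 to 4635) and Trap1a at 2637 (3296 to 3515). Gelatin replicate 1 stood high for Ltbp1 at 743 (495 to 572). Gelatin replicate 3 stood low for Dsp at 2993 (3579 to 3941) and Pfkfb3 at 552 (764 to 905). Gelatin replicate 3 stood high for Ndufv3 at 981 (816 to 869). Gelatin replicate 4 stood high for Trib3 at 764 (667 to 696).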

How the results depend on the processing

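Of the 4919 probe sets called, none had the opposite call under any alternative that was run on all probe sets. Leaving out 1 array gave 2413 to 2661 probe sets higher and 1939 to 2214 lower, 466 to 539 at least 2-fold higher and 107 to 136 at least 2-fold lower, and 4369 to 4607 of the calls were kept. Median centring gave 2268 higher and 3797 lower, and quantile normalization 2157 and 3264. With the 40% dimmest probe sets left out, 2061 were higher and 1372 lower of 7453 tested. The replicate block gave 2749 higher and 2292 lower. Same-numbered arrays of the groups did not deviate together (r from -0.351 to 0.376), and 2 of 6 gelatin arrays correlated best with their own number. Gelatin replicates 1, 2 and 5 alone, which is fewer arrays, gave 2221 higher and 1585 lower with 3521 of the calls kept. Of the 221 genes checked 201 were called, and 176 of these kept the call under all 23 alternatives. The cause of the losses was not tested. Socs3 reversed to -0.43 with its probe sets averaged. Lists moved most with scaling. Quantile normalization gave 19 replication, 18 mitosis, 12 nucleotide, 12 TGF beta, 11 TCA cycle, 11 actin, 9 tubulin, 8 NOTCH, 8 Polycomb, 8 chaperone, 6 FGF, 6 trophoblast and 3 neural genes lower. Gelatin replicates 1, 2 and 5 alone gave 1 higher and 1 lower general pluripotency gene, 3 higher LIF, 7 higher histone modification, 4 lower TGF beta, 4 lower fibroblast and 1 lower NOTCH gene. Leaving out 1 array moved some small counts: 2 lower NOTCH genes without gelatin replicate 4 or 6 or sorted replicate 3, 1 lower FGF gene without gelatin replicate 4 or sorted replicate 1 or 2, 3 higher replication genes without sorted replicate 5, and 4 lower fibroblast genes without gelatin replicate 6. The precision rests on 6 arrays a group, and genes near the floor are bounded by it.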

Other observations

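Genes on the X chromosome had another balance than the autosomes. Of 259 X-linked genes 62 were lower on gelatin (23.9%) and 35 higher (13.5%), against 18.2% and 23.6% of 7969 autosomal genes. At least 2-fold lower were 8 of them (3.09%, autosomes 0.929%), Rhox5, Xlr4a and Trap1a among them. These shares are a description and were not tested.

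The following genes of sex chromosomes and imprinted loci were chosen after their values were seen. Eif2s3y, a Y-linked translation factor gene, ran from 393 to 845 on gelatin and from 82.7 to 159 in sorted cells (2.00 ± 0.42). It was the 1 gene of 7 measured Y-linked genes to pass. Xist did not pass (0.00 ± 0.08). Of imprinted genes, Ndn (2.28 ± 0.19, another probe set at 0.26), Mest (1.32 ± 0.25), Magel2 (1.09 ± 0.20) and Igf2r (0.53 ± 0.13) were higher on gelatin and Slc38a4 lower (-0.67 ± 0.10). The labels do not say whether the groups came from the same line.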
